A study of Mus musculus with 24 samples.

Results

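The comparison described here sets 6 brain-injured mouse pups given erythropoietin (EPO) against 6 brain-injured pups without it. The members are the 12 arrays whose titles start with Epo_Y (injured EPO) or Epo_N (injured none), out of 24 arrays in 4 groups of 6, and the 14939 rows of the table that carry 1 gene symbol, out of 23238. All the mice are labelled BALB-c and aged 10 days, and each array holds total RNA of the right hippocampus. In injured mice this is the side on which the carotid artery was ligated. Injured EPO mice are labelled brain-injured and treated with high-dose recombinant erythropoietin, and injured none mice are labelled brain-injured without it. The remaining groups, used only as a background, are sham mice without EPO (sham none) and with it (sham EPO). The labels name neither the amount of EPO per body weight, nor when it was given, nor the age at operation. The series title names the question, which is what high-dose EPO does to gene expression in the hippocampus after a unilateral injury of the newborn brain.

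Erythropoietin is the hormone of red cell formation. Its receptor dimer activates the kinase JAK2 and the transcription factor STAT5, which switches on feedback inhibitors such as Cish. After injury of the young brain, microglia take up debris and release chemokines and complement, and astrocytes become reactive and make more of the filament protein GFAP. EPO has been studied as a protective treatment in this setting, so genes of gliosis, neurons, myelin and the EPO pathway are the ones of interest in the comparison.

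Values are log2 expression values after the authors' normalization (RMA), so a difference of 1 is a fold of 2, and the low end of the scale carries little signal. Array medians ran from 5.05 to 5.37 in injured EPO and from 5.18 to 5.33 in injured none. The correlation between 2 arrays ran from 0.964 to 0.991 within injured EPO, from 0.981 to 0.991 within injured none and from 0.965 to 0.993 between them. The lowest median and the lowest upper quartile (7.05) of the 12 arrays belonged to injured EPO replicate 3, which stood apart: 11207 of its 23238 rows lay below every injured none array, against 3181 to 6025 rows on the other 5 injured EPO arrays. After another quantile normalization its rows below and above were 5676 and 5711. On the other 5 injured EPO arrays they were then 2377 to 4858 and 2514 to 5019, so replicate 3 still had the most of both. Values without this array are given beside several results below. Each array is 1 mouse, so p-values rest on the spread between mice, dissections and arrays together. The array is of bulk tissue, in which fewer cells of a type and less RNA per cell cannot be told apart. Markers of hippocampal pyramidal neurons were high on these arrays: Neurod6 had a mean of 9.96 in injured EPO and 10.39 in injured none, and the calcium sensor gene Hpca 9.98 and 10.38.

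The groups are used as the sample characteristics label them. The titles can also be read with the first word as the treatment and the letter after it as the injury. In that reading the 6 arrays titled Epo_N are sham mice with EPO, the arrays titled Sham_Y are the injured mice without EPO, and the comparison of EPO in injured mice takes the Sham_Y arrays in the place of the Epo_N arrays. Which reading holds was not tested, and the differences in mean and in spread below depend on it. With the titles read that way 2019 rows were called for the mean, 863 higher and 1156 lower in injured EPO, and 10 rows for spread, 5 wider and 5 narrower. Ccl3 means were 3.65 in sham none, 4.04 in injured none, 6.47 in injured EPO and 10.61 on arrays labelled sham EPO. For Hpca the means were 10.21, 10.38, 9.98 and 8.48 in the same order. Phagocytic microglia genes, minus the injured none mean, stood at 1.68 to 2.02 on arrays labelled sham EPO and -0.35 to -0.08 on sham none. Astrocyte identity genes overlapped, at -0.13 to 0.16 and -0.38 to 0.10.

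The means of the 2 groups differed in no row past the threshold. Limma on the 12 arrays called 0 of 23238 rows (0% of rows) at an adjusted p of 0.05, and the smallest adjusted p was 0.696. At an unadjusted p under 0.05 there were 1636 rows (7.04%), 416 higher and 1220 lower in injured EPO. Errors of differences are standard errors (SE), with a median of 0.14 over rows. The count of called rows was also 0 without injured EPO replicate 3. The median difference over all rows, injured EPO minus injured none, was -0.06, and 36.0% of rows had a difference above 0. It was 0.00 after another quantile normalization and -0.02 without injured EPO replicate 3, so small negative differences below are to be read against this shift. Only 25 rows differed by at least 1, 19 higher and 6 lower. All 6 injured EPO arrays lay above all 6 injured none arrays in 22 rows (0.0947%) and below all of them in 56 rows (0.241%).

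The 10 named genes with the smallest p are given first, 7 of them lower and 3 higher in injured EPO. Ephb1, a receptor for ephrin-B ligands that guides axons and shapes synapses, read 6.46, 6.95 and 7.10 (lowest, median and highest) in injured EPO and 7.33, 7.48 and 7.59 in injured none. The groups did not overlap, and the difference was -0.61 ± 0.11 (log2 difference ± SE, n = 6 per group; limma unadjusted p = 0.000108, adjusted p = 0.696). Aifm3, a mitochondrial flavoprotein related to the apoptosis-inducing factor, read 5.92 to 6.17 in injured EPO and 6.35 to 6.79 in injured none, a difference of -0.48 ± 0.09. Slc13a5, a citrate transporter, read 7.02, 7.38 and 7.62 against 7.69, 7.91 and 8.07 (-0.54 ± 0.11). Each injured EPO array lay below each injured none array for these 3 genes, and for Acot6, an acyl-CoA thioesterase gene, as well. Acot6 read 3.17, 3.91 and 4.19 against 4.44, 4.63 and 5.08 (-0.90 ± 0.19).

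For 3 further genes 5 of the 6 injured EPO arrays lay below all injured none arrays. They were Dio2, the enzyme of glia that activates thyroid hormone (-0.60 ± 0.14), Selplg, the selectin ligand that marks resting microglia in brain (-0.60 ± 0.13), and the lipid transporter gene Abca9 (-0.60 ± 0.14). Selplg read 5.52, 5.94 and 6.24 in injured EPO and 6.20, 6.51 and 6.76 in injured none. Higher in injured EPO were 3 genes that are not known for a role in hippocampus. The odorant receptor gene Olfr1413 read 4.47, 4.93 and 5.29 against 3.18, 4.01 and 4.21 (0.95 ± 0.18), and the adipokine gene Retn 4.81, 5.05 and 5.20 against 4.49, 4.64 and 4.80 (0.37 ± 0.09). All 6 injured EPO arrays lay above all injured none arrays for both, and 5 of 6 did for Olfr390 (0.53 ± 0.13). Olfr390 lay at the low end of the scale, with no reading above 3.71 in injured EPO. Olfr1413 read 4.26 to 5.29 in sham none and 4.31 to 5.23 on arrays labelled sham EPO. All its injured none arrays thus lay below every array of the other groups. The adjusted p of these 10 genes, 0.696 in each, did not pass.

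**Figure D1:**
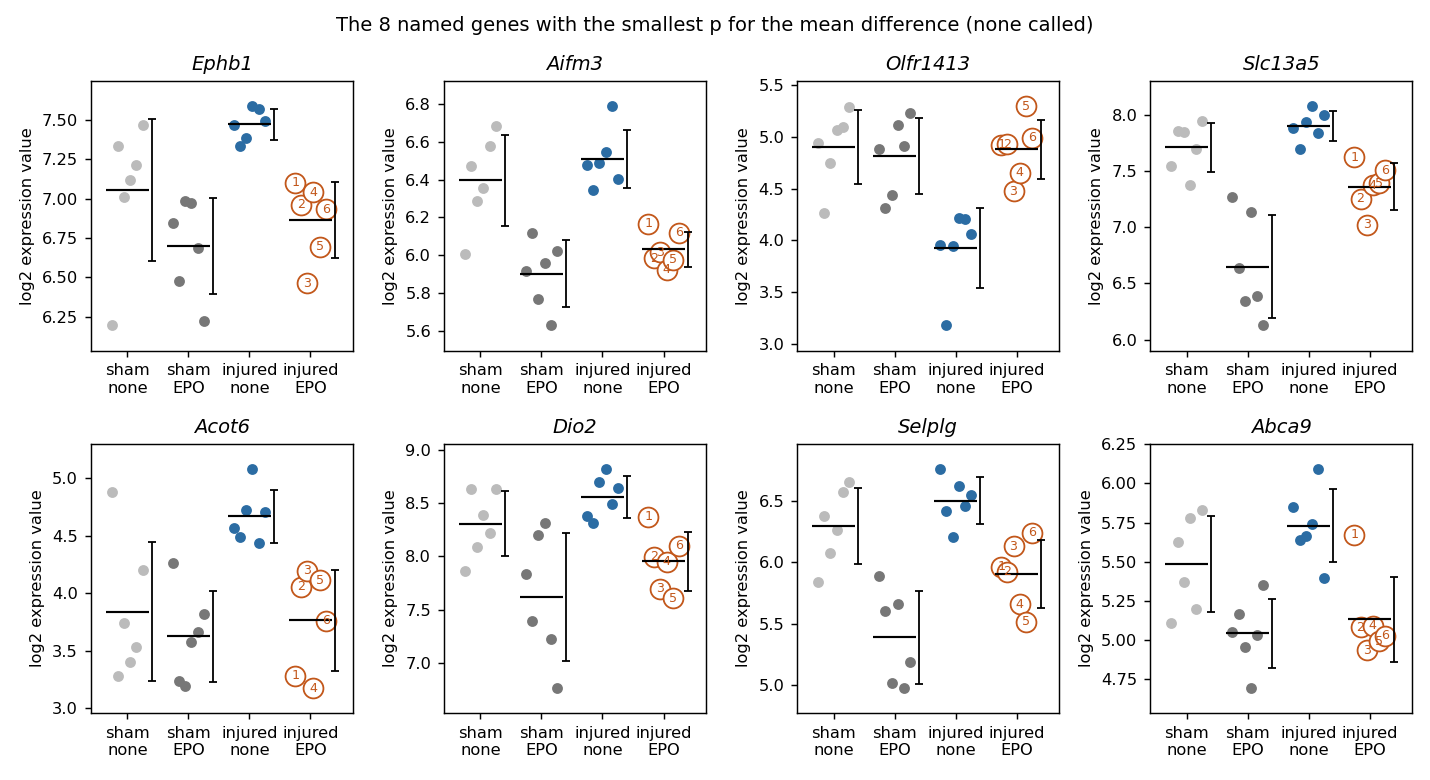
Log2 expression (vertical axis) of the 8 named genes with the smallest p for the mean difference, by group as labelled (horizontal axis). Each point is 1 array, with injured EPO arrays marked by replicate number, horizontal lines are group means and bars are 1 SD. Injured EPO lies below injured none on every array for Ephb1, Aifm3, Slc13a5 and Acot6 and above it for Olfr1413, and no adjusted p passed.

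The spread within a group passed its test in a few rows, in contrast to the mean. A test of absolute deviations from the group mean (limma, n = 6 per group) called 11 of 23238 rows (0.0473%), 9 of them wider in injured EPO (0.0387%) and 2 narrower. Of the 9, 8 carry 1 symbol, and these 8 are described next. No other row with 1 symbol was called, so the spread of further genes whose variance ratios are given below did not pass. By its construction the test favours rows in which every array lies far from the group mean. That the injured EPO arrays spread more was known when the test was chosen, so neither these calls nor the tests of array distance below are independent evidence that they do.

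Ccl3, a chemokine made by activated microglia that attracts monocytes, read 3.82, 9.10, 3.39, 10.63, 8.09 and 3.77 on injured EPO replicates 1 to 6. Injured none read 3.55, 3.84 and 5.29 (lowest, median and highest). Replicates 2, 4 and 5 were thus far above every injured none array, while replicates 1, 3 and 6 read below the injured none median. The SD was 3.18 in injured EPO and 0.63 in injured none, a variance ratio of 25.7 (adjusted p of the spread = 0.0323), and the mean difference of 2.43 ± 1.16 did not pass (adjusted p = 0.702). Sham none had a mean of 3.65, and the arrays labelled sham EPO had a mean of 10.61 and a range of 10.23 to 10.91, within which injured EPO replicate 4 alone fell.

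The same 3 arrays were the highest for each of the other 7 genes. Cxcl10, a chemokine induced by interferon, read 4.36, 6.56, 4.57, 6.46, 5.80 and 4.38 on replicates 1 to 6 and 3.97, 4.36 and 4.71 in injured none (adjusted p of the spread = 0.0487). Irgm1, an interferon-induced GTPase of cell-autonomous immunity, read 4.20, 5.80, 3.73, 5.99, 5.76 and 4.16 against 4.36, 4.59 and 5.08. Its injured EPO arrays fell on either side of injured none, 3 above all of them and 3 below, with a mean difference of 0.32 ± 0.38. Tlr1, a receptor for bacterial lipopeptides, was split in the same way: 5.17, 6.17, 4.94, 6.39, 6.19 and 4.75 against 5.40, 5.50 and 5.66. The group means of Tlr1 differed by 0.08 ± 0.27, and its variance ratio was 37.4 (adjusted p of the spread = 0.00966).

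Gpnmb, a glycoprotein of phagocytes filled with lipid, read 4.41, 5.63, 3.91, 5.63, 5.46 and 3.97 against 3.67, 3.74 and 3.89, so that all 6 injured EPO arrays lay above injured none. Its variance ratio of 98.7 was the largest of the 8 genes (adjusted p of the spread = 0.00814), and its mean difference was 1.09 ± 0.30 (adjusted p = 0.696). C1qa, a chain of the complement starter C1q made by microglia, read 8.14, 9.26, 7.55, 9.28, 9.05 and 7.93 against 7.92, 7.99 and 8.25. Ms4a6c, a membrane gene of macrophages, read 3.49, 4.64 and 5.38 in injured EPO (lowest, median and highest) and 3.46, 3.74 and 3.91 in injured none. Lcp2, an adaptor of immune receptor signalling, read 5.07, 5.89 and 6.63 against 5.22, 5.54 and 5.74.

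These calls rested on few arrays and on the labels. With the titles read the other way only Ccl3 and Lcp2 of the 8 were called for spread (adjusted p = 0.00637 and 0.0324). The arrays labelled sham EPO had SDs of 0.80 for Ms4a6c, 0.86 for Cxcl10 and 0.60 for Gpnmb, against 0.84, 1.04 and 0.83 in injured EPO. All 8 lost the call without injured EPO replicate 2, 3, 4 or 6, and the number of called rows then was 0, 3, 3 and 0. C1qa and Lcp2 lost it whichever of the 12 arrays was left out, with lowest adjusted p values of 0.0508 and 0.0612. The number of called rows was 32 without replicate 5, and 3, 3, 3, 5, 7 and 3 without each injured none array in turn. Within title code 3D (3 injured EPO and 4 injured none arrays; the labels do not say what the code stands for) it was 0. For Ccl3, replicate 2 was high and replicate 1 low of the 2 injured EPO arrays of code 3A. Of the 3 of code 3D, replicates 4 and 5 were high and replicate 3 low. Code 3F held 1 injured EPO array, replicate 6, which was low. Whether the code goes with the level was not tested.

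**Figure D2:**
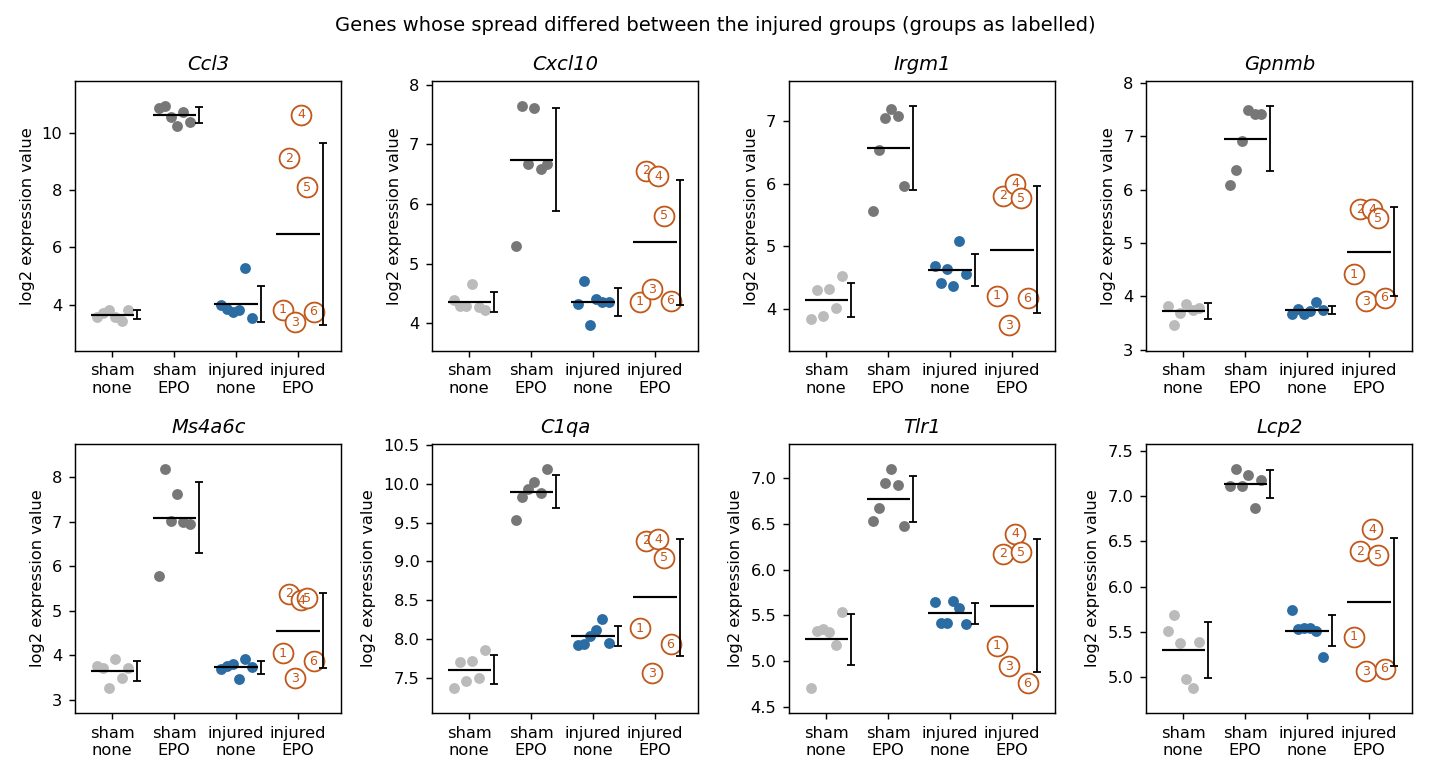
Log2 expression (vertical axis) of the 8 genes with 1 symbol whose spread was called wider in injured EPO, by group as labelled (horizontal axis). Each point is 1 array, with injured EPO arrays marked by replicate number, horizontal lines are group means and bars are 1 SD. Replicates 2, 4 and 5 lie above every injured none array in all 8 panels.

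Promoters of 4 of these genes are shown: Ccl3, which spread most, and the 3 in which a motif was found. That of Socs3 is shown as the feedback inhibitor of STAT signalling. The windows of Gpnmb, Ms4a6c and Lcp2 and another of Tlr1 held no match. The 250 bases before the gene start were taken from RefSeq (GRCm38.p6) for 8 of the 9 genes, all but C1qa. They are printed 5′ to 3′ on the gene's strand, and capitals mark matches, on either strand, to a STAT element (TTCNNNGAA), an AP-1 site (TGANTCA) or an antioxidant response element (TGACNNNGC). Ccl3, at chr11:83649379-83649628 on the minus strand, holds none of the 3. Cxcl10, at chr5:92348890-92349139 on the minus strand, holds an AP-1 match that overlaps an antioxidant element match. Irgm1, at chr11:48871421-48871670 on the minus strand, holds an AP-1 match. The second Tlr1 window, at chr5:64932700-64932949 on the minus strand, holds a STAT element match, as does Socs3, at chr11:117969367-117969616 on the minus strand.
Ccl3: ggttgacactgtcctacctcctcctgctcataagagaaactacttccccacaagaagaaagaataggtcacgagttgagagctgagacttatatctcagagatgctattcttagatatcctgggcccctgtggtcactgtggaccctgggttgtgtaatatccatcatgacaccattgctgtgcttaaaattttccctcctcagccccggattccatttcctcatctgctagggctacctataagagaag
Cxcl10: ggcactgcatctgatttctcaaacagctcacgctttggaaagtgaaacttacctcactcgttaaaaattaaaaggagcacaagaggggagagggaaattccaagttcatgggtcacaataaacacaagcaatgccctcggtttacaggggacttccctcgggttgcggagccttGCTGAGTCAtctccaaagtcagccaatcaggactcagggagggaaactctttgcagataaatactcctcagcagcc
Irgm1: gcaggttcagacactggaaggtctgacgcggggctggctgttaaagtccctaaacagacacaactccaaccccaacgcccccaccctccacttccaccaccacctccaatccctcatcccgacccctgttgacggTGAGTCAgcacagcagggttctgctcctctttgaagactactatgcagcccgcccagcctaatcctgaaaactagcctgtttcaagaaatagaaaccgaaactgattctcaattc
Tlr1: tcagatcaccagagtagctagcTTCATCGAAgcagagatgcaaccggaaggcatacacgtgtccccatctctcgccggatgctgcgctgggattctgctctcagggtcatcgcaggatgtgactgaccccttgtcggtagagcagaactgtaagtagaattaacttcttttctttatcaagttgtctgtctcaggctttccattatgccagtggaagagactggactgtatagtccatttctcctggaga
Socs3: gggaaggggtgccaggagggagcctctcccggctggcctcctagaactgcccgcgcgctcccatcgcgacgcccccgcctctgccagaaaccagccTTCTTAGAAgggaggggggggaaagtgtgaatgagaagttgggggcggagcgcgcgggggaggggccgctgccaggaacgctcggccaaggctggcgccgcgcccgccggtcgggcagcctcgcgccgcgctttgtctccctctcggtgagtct
Of 32851 promoter windows of this length in the table, 7.02% held the STAT letters, 6.75% the AP-1 letters and 10.2% the antioxidant letters. Among the 8 windows of the 7 matched spread genes the counts were 1, 2 and 1. A match is a run of letters and not a binding site.

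Across the whole table the injured EPO arrays were the more variable. Variance was higher in injured EPO in 15897 rows (68.4%), and the median ratio of variances was 1.83 over all rows and 2.35 over rows with 1 symbol. Mean row variance was 0.132 in injured EPO, against 0.0787 in injured none, 0.0896 in sham none and 0.0911 in the arrays labelled sham EPO. The ratio depended on the level: it was 0.937 in rows with a mean under 4, 1.55 from 4 to 6, 3.37 from 6 to 8 and 3.54 at 8 and over. The median log2 variance ratio was 0.87 with all arrays and 0.29 without injured EPO replicate 3. At an unadjusted p under 0.05, 2261 rows (9.73%) were wider and 527 (2.27%) narrower in injured EPO.

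With 1 value per array the difference in spread was not called. The distance of an array from the mean of the other arrays of its group (root mean square over rows) was 0.386 ± 0.105 (SD, n = 6) in injured EPO and 0.305 ± 0.038 in injured none. It was 0.283, 0.319, 0.565, 0.450, 0.376 and 0.324 on injured EPO replicates 1 to 6, and 0.269 to 0.371 in injured none, so the groups overlapped. The difference of 0.0809 gave an exact permutation p of 0.0996 (two-sided, 924 assignments). It was 0.148 over rows with a mean of at least 5 (exact permutation p = 0.0152) and 0.0419 without replicate 3 (exact permutation p = 0.171).

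**Figure D3:**
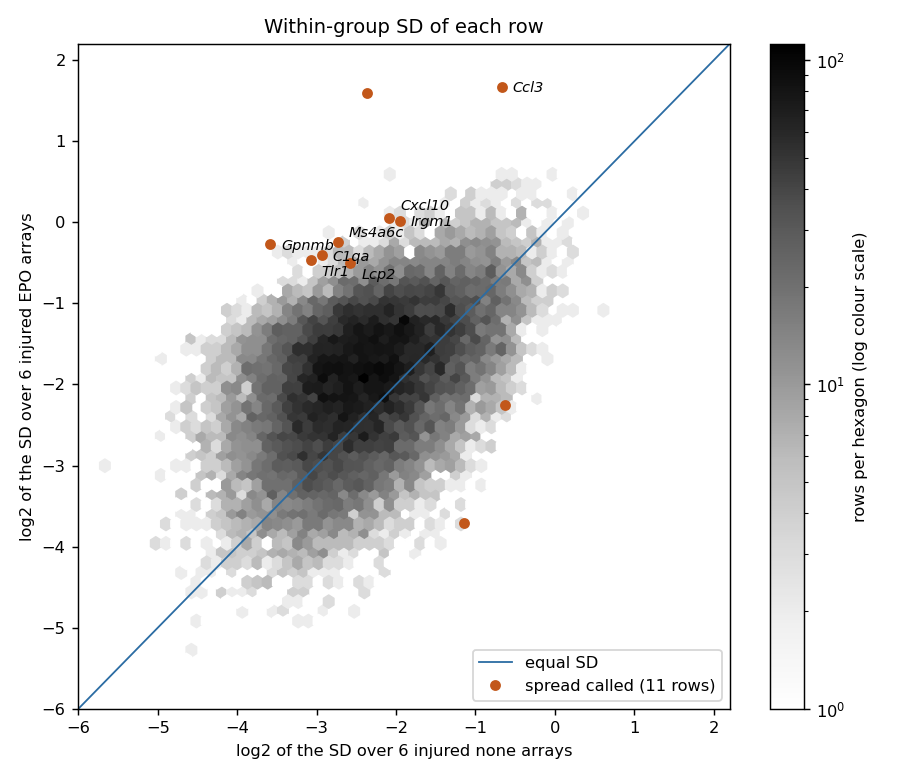
Log2 SD of each row over the 6 injured EPO arrays (vertical axis) against that over the 6 injured none arrays (horizontal axis), with darker hexagons holding more rows on a log colour scale. Most rows lie above the line of equal SD, and orange points are the 11 called rows, 9 above the line and 2 below it.

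Genes of inflammation and gliosis were higher on the same arrays. Phagocytic microglia genes had a difference above 0 in 10 of 11 measured members, with a median of 0.53 (-0.06 over all rows). In 9 of the 11, at least 3 injured EPO arrays lay above every injured none array, a pattern seen in 9.12% of all rows. Variance was higher in injured EPO in 11 of 11, with a median ratio of 25.8. Cd68, a lysosomal protein of phagocytes, read 7.56, 8.80, 6.23, 9.81, 8.64 and 6.86 on injured EPO replicates 1 to 6 and 6.94, 7.06 and 7.30 in injured none (0.89 ± 0.48). Plin2, which coats lipid droplets, read 6.23, 7.92 and 9.91 against 6.70, 7.13 and 7.20 (0.91 ± 0.54), and the scavenger receptor Msr1 2.78, 3.17 and 5.14 against 2.85, 2.89 and 3.07 (0.74 ± 0.40). Lgals3, a galectin of activated microglia, read 4.80, 5.17 and 6.44 against 4.44, 4.61 and 4.79. All 6 injured EPO arrays lay above injured none for Lgals3, which set it apart from Cd68, Plin2 and Msr1.

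Of 19 measured cytokines and chemokines, 18 had a difference above 0, with a median of 0.41 and a median variance ratio of 4.90, and 2 were called for spread, Ccl3 and Cxcl10. Ccl9 read 3.69, 7.50, 3.22, 8.02, 4.56 and 3.68 on replicates 1 to 6 against 3.44, 3.65 and 4.03 (1.45 ± 0.76), and Ccl12, a ligand of the monocyte receptor CCR2, 3.54, 4.45 and 6.67 against 3.68, 3.84 and 4.30 (0.94 ± 0.50). Cxcl16 read 4.64, 5.34 and 6.46 against 4.79, 4.85 and 5.02, with a variance ratio of 79.3. Ccl2, the main monocyte attractant, spread far less, at 4.20, 4.37 and 4.71 against 4.05, 4.12 and 4.42 (0.25 ± 0.10). Of 6 measured complement genes, 5 had a difference above 0, with a median of 0.45 (0.72 without replicate 3) and a median variance ratio of 32.3. C3ar1, the receptor of the fragment C3a, read 5.08, 7.34, 3.69, 8.39, 7.11 and 4.66 on replicates 1 to 6 against 4.77, 4.93 and 5.35, and the C1q chain C1qb 8.17, 9.49, 6.87, 9.96, 8.96 and 7.74 against 7.89, 8.21 and 8.30. Replicates 2, 4 and 5 lay above all injured none arrays for both, and replicates 3 and 6 below them.

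Interferon response genes had a difference above 0 in 9 of 9, with a median of 0.27 (0.43 without replicate 3), and at least 3 injured EPO arrays above injured none in 8 of 9. Ifit1, an inhibitor of viral RNA translation, read 2.73, 5.33, 3.01, 5.50, 4.12 and 2.46 on replicates 1 to 6 and 2.13, 2.81 and 4.08 in injured none, so its injured none arrays varied too. Irf7, the regulator of type I interferon, read 4.20, 4.75 and 5.62 against 4.36, 4.50 and 4.66 and had a variance ratio of 21.8. Gbp2, an interferon-induced GTPase, read 3.46, 4.01 and 5.43 against 3.42, 3.70 and 3.97.

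Reactive astrocyte genes had a difference above 0 in 17 of 18, with a median of 0.43 and a median variance ratio of 12.6. Gfap read 9.71, 10.92, 8.63, 11.62, 10.74 and 9.02 on replicates 1 to 6 and 8.92, 9.18 and 9.45 in injured none. Replicates 1, 2, 4 and 5 lay above every injured none array and replicate 3 below all of them, and the difference of 0.92 ± 0.43 had an adjusted p of 0.702. Tgm1, a crosslinking enzyme, read 4.49, 7.06, 4.57, 7.48, 5.01 and 4.30 against 3.76, 4.13 and 4.24 (1.39 ± 0.51), above injured none on all 6 arrays. Timp1, an inhibitor of matrix metalloproteinases, read 4.22, 6.78, 3.65, 6.68, 5.05 and 3.51 against 3.09, 3.66 and 3.93 (1.36 ± 0.53). Lcn2, a lipocalin of reactive astrocytes, was highest on replicate 2: 3.75, 6.99, 3.73, 5.54, 4.32 and 4.05 against 3.77, 4.02 and 4.24 (0.72 ± 0.47). Cd44, the hyaluronan receptor, had a narrow range in injured none, 3.14 to 3.30, and read 3.23 to 4.51 in injured EPO. Replicate 4 was thus the highest for Gfap and Tgm1, and replicate 2 for Timp1 and Lcn2.

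Identity genes of the same cells had medians below 0. Of 12 measured astrocyte identity genes 3 had a difference above 0, with a median of -0.16 (-0.08 after another quantile normalization and -0.08 without replicate 3). The water channel gene Aqp4 read 10.04, 10.46 and 11.03 against 10.07, 10.20 and 10.42, while Glul, the enzyme that makes glutamine from glutamate, was lowest on replicate 4, at 11.20, 10.52, 11.37, 10.00, 11.17 and 11.05 on replicates 1 to 6 against 10.88, 11.12 and 11.44. Of 14 microglia identity genes 4 had a difference above 0, with a median of -0.24 (-0.14 after another quantile normalization and -0.14 without replicate 3). In 8 at least 3 injured EPO arrays lay below every injured none array (18.7% of all rows, and a higher share of rows with 1 symbol and a mean of at least 5). Tmem119, a membrane protein of resting microglia, read 5.36, 5.80 and 6.11 against 6.03, 6.40 and 6.46 (-0.52 ± 0.13). The lectin gene Siglech read 5.44, 5.65 and 5.96 against 5.68, 6.06 and 6.37. Aif1, a calcium-binding protein used to stain microglia, read 4.87, 5.68 and 6.20 against 5.21, 5.49 and 5.65 (0.14 ± 0.19). Irf8, a transcription factor of microglia that also rises with activation, read 4.83, 5.12 and 5.84 against 4.48, 4.69 and 4.82, above injured none on all 6 arrays (0.54 ± 0.17). Trem2, a lipid receptor needed for phagocytosis, had equal means (5.87 in both) but a variance ratio of 66.8, with replicates 2 and 4 at 6.46 and 7.10, replicate 5 just above injured none and replicates 1, 3 and 6 at 5.58, 4.81 and 5.29, against 5.70 to 5.96 in injured none.

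**Figure D4:**
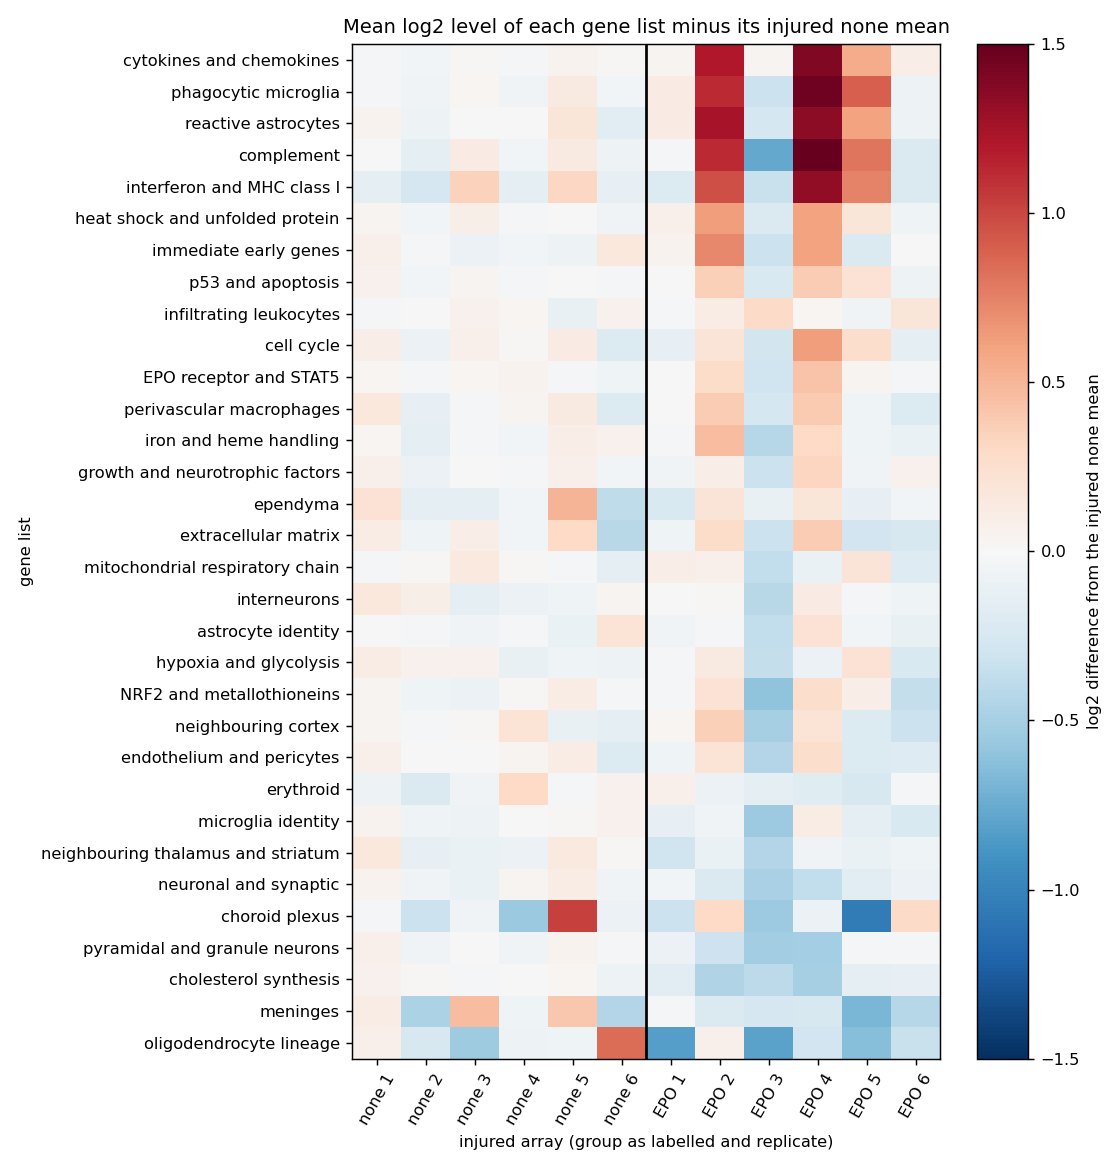
Mean log2 level of each of the 32 gene lists (rows) on each injured array (columns), as the difference from the injured none mean, red higher and blue lower. The 5 lists of cytokines, phagocytic microglia, reactive astrocytes, complement and interferon response are highest on injured EPO replicates 2, 4 and 5, and replicate 3 is low for most lists.

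The summed level of these lists put the arrays in nearly the same order. As the mean over members minus the injured none mean, phagocytic microglia genes stood at 0.12, 1.11, -0.32, 1.46, 0.89 and -0.07 on injured EPO replicates 1 to 6, and within -0.05 and 0.14 in injured none. Reactive astrocyte genes stood at 0.12, 1.24, -0.26, 1.34, 0.61 and -0.07, and complement genes at -0.02, 1.12, -0.77, 1.49, 0.80 and -0.22. Replicates 2, 4 and 5 were above the injured none range in each, and replicate 3 was below it. On the arrays labelled sham EPO the reactive astrocyte list stood at 2.11 to 2.75, above every injured EPO array, and on sham none at -0.41 to -0.03. The Y-linked gene Eif2s3y was high on injured EPO replicates 1 and 5 and injured none replicates 1, 2 and 4. On injured EPO replicates 1 to 6 it read 7.45, 2.76, 2.58, 2.78, 7.83 and 2.56. Whether its level goes with the order of the arrays was not tested.

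Markers of other cells that the dissection could hold were measured beside these lists. Infiltrating leukocyte markers had a difference above 0 in 11 of 16 members, with a median of 0.07 (0.05 without replicate 3). Their level ran from -0.05 to 0.29 in injured EPO and from -0.12 to 0.07 in injured none, and it was highest on replicate 3. On replicate 3 alone 919 rows lay above every injured none array, and 54 of them had 1 symbol and a mean of at least 5. Whether the list level on replicate 3 reflects cells or the scaling of that array was not tested. Ptprc, the common leukocyte antigen that microglia share, read 3.52, 4.27, 3.46, 4.23, 3.91 and 3.33 on replicates 1 to 6 against 3.43, 3.53 and 3.63, whereas Ccr2, of blood monocytes, read 2.38, 2.47 and 3.15 against 2.48, 2.62 and 2.69, at the low end of the scale. Perivascular macrophage markers had a difference above 0 in 5 of 8 (median 0.07), with levels of -0.26 to 0.40 in injured EPO and -0.20 to 0.16 in injured none. Lyve1, of macrophages at vessels and meninges, read 4.82 and 5.07 on replicates 2 and 4 and 3.68 to 3.73 on the other 4. The part of these cells in the values above was not tested.

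Endothelial and pericyte markers had a difference above 0 in 6 of 20 (median -0.12). After another quantile normalization it was above 0 in 10 of 20 (median -0.00), and without replicate 3 the median was -0.03. They include the tight junction gene Ocln at 5.74, 6.27 and 6.42 against 6.43, 6.49 and 6.72, below injured none on all 6 arrays (-0.36 ± 0.11), and the leukocyte adhesion gene Icam1 at 5.79, 6.10 and 6.44 against 5.62, 5.77 and 6.02 (0.32 ± 0.13). Choroid plexus markers had a difference above 0 in 1 of 9, with levels of -1.05 to 0.29 in injured EPO and -0.55 to 1.03 in injured none. Meningeal markers ran from -0.69 to -0.02 and from -0.47 to 0.47, and ependymal markers from -0.23 to 0.20 and from -0.38 to 0.51. Markers of neighbouring thalamus and striatum ran from -0.45 to -0.05 and from -0.12 to 0.16, and those of neighbouring cortex from -0.49 to 0.36 and from -0.13 to 0.21. Differences in what the dissection took in were not tested.

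Neuronal genes were lower in injured EPO by small amounts that did not pass. None of 19 neuronal and synaptic genes had a difference above 0, with a median of -0.19 (-0.16 after another quantile normalization). In 13 at least 3 injured EPO arrays lay below every injured none array, against 18.7% of all rows. Among rows with 1 symbol and a mean of at least 5 the share was higher than 18.7%. Grin2a, a subunit of the NMDA receptor, read 8.36, 8.78 and 9.19 against 8.89, 9.33 and 9.58 (-0.52 ± 0.15), and the neurofilament gene Nefh 6.50, 6.89 and 7.16 against 7.07, 7.31 and 7.51 (-0.42 ± 0.12). Camk2a, a kinase of excitatory synapses, was narrow in injured none, 11.61 to 11.69, and read 11.63, 11.25, 11.37, 10.92, 11.48 and 11.64 on injured EPO replicates 1 to 6. Slc17a7, the glutamate transporter of excitatory vesicles, read 11.98, 11.75, 11.78, 11.42, 11.79 and 11.96 against 11.91 to 12.05. Replicate 4, high for inflammation, was the lowest for Camk2a and Slc17a7, and replicates 1 and 6 read like injured none.

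Pyramidal and granule neuron markers had a difference above 0 in 2 of 18, with a median of -0.31 (-0.19 after another quantile normalization and -0.21 without replicate 3). Neurod6, a transcription factor of pyramidal neurons, read 10.32, 9.36, 9.73, 9.21, 10.70 and 10.41 on replicates 1 to 6 against 10.17, 10.42 and 10.59. Replicate 5, high for inflammation genes, had the highest Neurod6 of the 6. Its pyramidal and granule list level of -0.03 was within injured none (-0.05 to 0.08). Its neuronal and synaptic list level of -0.17 was below injured none (-0.10 to 0.11). Whether neuronal and inflammation levels go together was not tested. Hpca read 9.37, 10.07 and 10.37 against 10.08, 10.40 and 10.55, and Lct 6.20, 6.83 and 7.30 against 7.11, 7.51 and 7.88 (-0.70 ± 0.18). Interneuron markers had a median of -0.03, with 6 of 13 above 0, which turned to 0.04 after another quantile normalization and 0.01 without replicate 3, and Pvalb, of fast-spiking interneurons, read 5.05, 5.34 and 5.64 against 5.37, 5.66 and 6.58.

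Oligodendrocyte and cholesterol genes had lower means in injured EPO, with no member called. None of 14 oligodendrocyte lineage genes had a difference above 0, and the median was -0.46 (-0.36 after another quantile normalization, with 2 above 0). Their median variance ratio was 1.29, and the median SD was 0.42 in both groups. The ratio was 1.83 over all rows, 3.37 in rows with a mean from 6 to 8 and 3.54 at 8 and over. The list level ran from -0.83 to 0.08 in injured EPO and from -0.53 to 0.84 in injured none, with injured none replicate 6 highest. Mog, a myelin surface protein, read 5.92, 6.87 and 8.47 against 6.78, 7.49 and 10.42 (-0.98 ± 0.56), and Mag, another myelin protein, 6.23, 6.76 and 8.28 against 6.94, 7.64 and 9.62 (-0.93 ± 0.43). The groups overlapped widely for both. Pdgfra, the receptor of oligodendrocyte precursors, did not overlap: 7.44, 7.90 and 8.15 against 8.16, 8.30 and 8.54 (-0.45 ± 0.12).

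None of 12 cholesterol synthesis genes had a difference above 0 (median -0.29, and -0.23 after another quantile normalization). Lss, the enzyme that closes the sterol ring, read 6.36, 6.76 and 7.08 against 7.09, 7.19 and 7.23, below injured none on all 6 arrays (-0.42 ± 0.11). Cyp51, a later enzyme of the pathway, read 8.39, 7.73, 7.86, 7.43, 8.09 and 8.52 on replicates 1 to 6 against 8.41, 8.52 and 8.71, and Sqle, squalene epoxidase, 8.10, 8.89 and 9.15 against 8.89, 9.20 and 9.41. Replicates 2 and 4 were the lowest for Cyp51 and Sqle, and their list levels were -0.46 and -0.50, against -0.08 to 0.07 in injured none.

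The EPO pathway showed no difference between injured EPO and injured none that passed. Of 17 measured genes of the EPO receptor and STAT5 list 9 had a difference above 0, with a median of 0.00. After another quantile normalization it was 13 of 17 (median 0.08), and the median was 0.07 without replicate 3. Epor, the receptor gene, read 5.10, 5.17 and 5.40 in injured EPO and 4.87, 5.23 and 5.53 in injured none, a difference of 0.00 ± 0.11. Cish, the feedback inhibitor that STAT5 induces, read 5.18, 5.43 and 5.87 against 5.11, 5.54 and 5.71, a difference of -0.00 ± 0.14 with a 95% interval of -0.30 to 0.29. Bcl2l1, a survival gene and STAT5 target, read 6.41, 6.45 and 6.69 against 6.29, 6.53 and 6.67 (0.02 ± 0.09). Socs3, the inhibitor induced through STAT3, read 5.65, 6.20, 5.51, 6.22, 5.45 and 6.02 on replicates 1 to 6 against 4.80, 5.48 and 5.62 (0.49 ± 0.18), with 4 arrays above injured none. The arrays labelled sham EPO had a Socs3 mean of 7.79. Stat3 itself read 6.92, 7.98 and 8.97 against 7.46, 7.92 and 8.01 and had a variance ratio of 12.7, and Jak2 6.47, 7.42 and 7.71 against 7.21, 7.40 and 7.57. Epo read 2.49, 2.54 and 2.93 against 2.56, 2.68 and 2.94, at the low end of the scale.

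Erythroid and iron genes, the classic targets of EPO outside the brain, gave no call either, with 4 of 8 erythroid genes above 0 (median -0.00) and 7 of 14 of iron and heme handling (0.02, and 0.06 after another quantile normalization). Alas2, the first enzyme of heme synthesis in red cells, read 5.79, 6.14 and 7.11 against 5.72, 6.83 and 8.12 (-0.57 ± 0.33), with more spread in injured none. Slc4a1, the anion exchanger of red cells, read 5.18, 5.32 and 5.69 against 5.16, 5.48 and 6.44, with a variance ratio of 0.144. Hmox1, which degrades heme, read 5.51, 8.12, 4.90, 8.42, 6.27 and 5.43 on replicates 1 to 6 against 5.30, 5.62 and 5.91 (0.81 ± 0.54, variance ratio 41.0). The iron exporter gene Slc40a1 read 7.08, 7.22 and 7.99 against 7.54, 7.86 and 8.07 (-0.45 ± 0.16), and Tfrc, the transferrin receptor, 8.01, 8.79 and 9.37 against 8.89, 8.99 and 9.53 (-0.30 ± 0.20). Slc40a1 and Tfrc overlapped between the groups, with 4 injured EPO arrays below injured none for each.

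Stress and growth genes were mixed. Atf3, a stress-induced transcription factor, read 3.59, 6.41, 3.59, 6.74, 4.28 and 3.83 on replicates 1 to 6 and 3.29, 3.31 and 3.50 in injured none, above it on all 6 arrays (1.40 ± 0.52). Its variance ratio was 324, but its spread was not called. The immediate early gene Fos read 5.08, 5.35 and 6.54 against 4.87, 5.14 and 5.46, and Npas4 5.60, 7.45, 5.07, 7.36, 5.33 and 5.35 against 5.21, 5.54 and 5.98. The list of immediate early genes stood at 0.73 and 0.60 on replicates 2 and 4 and at -0.22 on replicate 5, against -0.09 to 0.16 in injured none. Of its 14 measured genes 8 had a difference above 0 (median 0.05), and 11 after another quantile normalization (0.10). Cdkn1a, the p53 target that arrests the cell cycle, read 6.94, 8.24, 6.27, 8.51, 7.42 and 6.77 against 6.62, 6.84 and 7.12 (0.50 ± 0.32). Heat shock and unfolded protein genes had a difference above 0 in 10 of 13 (median 0.12), p53 and apoptosis genes in 11 of 15 (0.07) and cell cycle genes in 13 of 17 (0.13). NRF2 and metallothionein genes had 5 of 13 above 0 (-0.10), hypoxia and glycolysis genes 6 of 14 (-0.06), growth factor genes 6 of 13 (-0.01) and respiratory chain genes 2 of 14 (-0.04). Medians near 0 turned with the scaling: after another quantile normalization growth factor genes had 9 of 13 above 0 (0.05) and respiratory chain genes 9 of 14 (0.03), and without replicate 3 the medians were 0.06 and 0.03. For NRF2 genes the medians were -0.02 and 0.03, and for hypoxia genes -0.02 and -0.03. For heat shock genes they were 0.20 and 0.19, and for p53 genes 0.13 and 0.11. The replication gene Mcm3 read 4.68, 5.43 and 7.03 against 4.98, 5.18 and 5.53. Bdnf read 5.64, 5.97 and 6.42 against 5.78, 6.04 and 6.34 (-0.07 ± 0.13), and Vegfa 7.56, 7.64 and 8.07 against 7.67, 7.93 and 8.09 (-0.17 ± 0.11), both overlapping.

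Across all rows some sets of arrays left the injured none range together more often than others. At least 3 injured EPO arrays lay above every injured none array in 2120 rows (9.12%) and below in 4353 (18.7%), and after another quantile normalization these shares were 12.6% and 12.3%. Of 1516 rows with exactly 3 arrays above, 520 (34.3%) had replicates 2, 4 and 5 as the 3, and the next set, replicates 3, 4 and 6, had 141. After the normalization the first set held 333 of 1916 rows (17.4%). Of 2721 rows with exactly 3 arrays below, replicates 3, 4 and 6 made 503 and replicates 2, 3 and 4 made 480. These counts describe the 6 arrays and compare no groups of them.

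**Figure D5:**
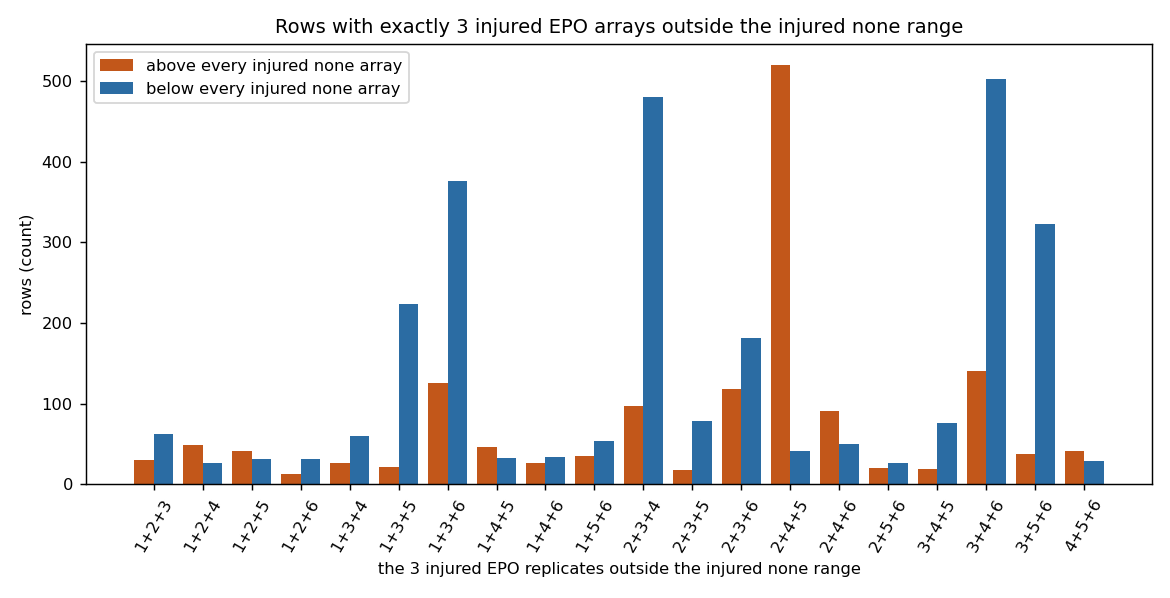
Number of rows (vertical axis) in which exactly 3 injured EPO arrays lay above (orange) or below (blue) every injured none array, for each of the 20 possible sets of 3 replicates (horizontal axis). The set of replicates 2, 4 and 5 holds 520 of the 1516 rows above, and sets with replicate 3 hold the 4 tallest blue bars.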

How the data were processed

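The authors deposited log2 expression values made with RMA in Affymetrix Expression Console, per the submitters' processing notes, from 24 Affymetrix mouse exon arrays of 1 mouse each (their versions are not stated there). RMA comprises background correction, quantile normalization and probe summary, and no further normalization was applied in the main fits. The deposited arrays still differed in level, with medians of 5.05 to 5.37 in injured EPO. All 24 value columns were used as labelled, with 0 left out. Symbols came from the platform annotation: 14939 rows carry 1 symbol, and 14884 of them were found by Entrez ID in RefSeq. A list gene with several rows is represented by the row with the highest mean, and 4 older symbols in the lists were updated through RefSeq synonyms.

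Means were compared with limma 3.58.1 in R 4.3.3 on the 12 arrays, with Benjamini-Hochberg adjustment over all 23238 rows and a threshold of 0.05. Spread was compared by limma on absolute deviations from the group mean. Array distances were compared by an exact permutation test. The fits were tested on simulated data. Other scalings, filters, priors, blocks and left-out arrays were tried.

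Named were the 10 genes with the smallest p for the mean, the genes called for spread, up to 4 members of each of the 32 lists by size of difference and up to 2 by variance ratio, and 14 fixed genes; only some list members are written out. The comparison and the lists were chosen with earlier results of these data known.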

Additional observations from a re-analysis of the deposited data

Results flagged for a closer look

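Single arrays stood far from the other 5 of their group in 10 of the gene, array and list levels examined, by the gap to the nearest array over the group's range. Chance marks about 1 in 20 groups, and 62 pairs of gene and group, 6 of array measure and group and 64 of list and group were examined. In injured none, Olfr1413 read 3.18 on replicate 2 (nearest 3.94), Ccl3 5.29 on replicate 5 (nearest 3.99) and Ccl2 4.42 on replicate 2 (nearest 4.16). In injured EPO, Abca9 read 5.67 on replicate 1 (nearest 5.09), Olfr390 3.01 on replicate 4 (nearest 3.46) and Epo 2.93 on replicate 4 (nearest 2.64).

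Of the list levels, relative to the injured none mean, astrocyte identity stood at 0.207 and endothelium and pericytes at -0.209 on injured none replicate 6. Choroid plexus markers stood at 1.03 on injured none replicate 5, and interneuron markers at -0.411 on injured EPO replicate 3, the array with the lowest median.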

How the results depend on the processing

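The count of rows called for the mean was 0 under each of the 26 alternatives except the other reading of the titles, which gave 2019. For the 81 named genes 0 were called in 2008 pairs of gene and alternative with that reading left out, and uncalled differences changed sign in 44 pairs, in 10 genes. Under the other reading 44 named genes were called, and 43 turned direction. Their log2 differences then were negative for Ccl3 -4.14, Irgm1 -1.62, Gpnmb -2.11, Ms4a6c -2.54, C1qa -1.36, Tlr1 -1.17, Lcp2 -1.30, Socs3 -1.94, Ccl2 -1.97, Hmox1 -3.49, Lcn2 -4.93, Tgm1 -3.16, Timp1 -3.25, Cd44 -0.93, Irf8 -1.15, Trem2 -1.18, Plin2 -2.78, Cd68 -1.98, Lgals3 -1.36, Msr1 -2.86, Ccl9 -3.43, Ccl12 -2.89, Cxcl16 -2.05, C3ar1 -2.82, C1qb -1.92, Gbp2 -1.70, Irf7 -1.54, Lyve1 -1.56, Ptprc -1.30, Icam1 -1.17, Atf3 -2.44, Fos -1.89, Stat3 -1.33, Cdkn1a -1.22, and positive for Slc13a5 0.71, Siglech 0.52, Grin2a 0.87, Camk2a 0.78, Slc17a7 0.74, Lct 1.38, Neurod6 2.16, Hpca 1.50, Sqle 0.70. The count of rows called for spread, 11, was 23 with each array centred on its median, 20 over rows with 1 symbol, 5 with deviations from the group median, and 0 with a trend and robust prior, within title code 3D, with squared deviations or, added after seeing the data, without injured EPO replicate 3 and injured none replicate 6. It ran from 0 to 32 when 1 array was left out. The median log2 variance ratio of 0.87 was 1.62 over rows with a mean of at least 5 and 1.69 within title code 3D, and ran from 0.29 to 1.14 when 1 array was left out. The difference in array distance of 0.0809 was 0.148 over rows with a mean of at least 5, 0.252 within title code 3D (exact permutation p = 0.0286) and 0.0574 as a median absolute deviation (exact permutation p = 0.0476). That injured EPO arrays spread more was known when the comparison was chosen, so these p-values are not independent evidence of it. The p within title code 3D is the smallest that 3 against 4 arrays allow. Under the other reading of the titles the 3 measures of spread were 10 rows, 0.58 and 0.0562 (exact permutation p = 0.268). The difference ran from 0.0419 to 0.115 when 1 array was left out, with an exact permutation p under the threshold without injured EPO replicate 1 or 5. Distances in the group with fewer arrays are taken from a mean of fewer arrays, which raises them. The p-values of the distance within title code 3D and without an injured EPO array therefore lean towards injured EPO. The causes were not tested. No paired analysis was possible because the replicate numbers were given in accession order and pair no mice. With 6 arrays per group, the number of arrays limits the precision, and rows near the low end of the scale carry little signal.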
